A study of Homo sapiens with 6 samples.

Results

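The granins are acidic secretory proteins that neurons and endocrine cells pack into dense-core granules together with peptide hormones. Measured here were the transcripts of 5 of them or their close relatives (CHGA, CHGB, SCG2, SCG3 and VGF), of the prohormone convertases PCSK1 and PCSK2, of their binding proteins PCSK1N and SCG5, and of the carboxypeptidase CPE. These 10 genes were taken by name from a table of 19823 genes. All 10 passed the limit on reads and were among the 18130 genes tested.

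The values come from poly(A) RNA-seq of glutamatergic neurons (iNeurons) depleted of RBM12. The neurons were differentiated from the human iPSC line WTc11. Of the 6 samples, 3 were untreated and 3 received isoproterenol, a catecholamine drug that raises cAMP. Both groups carried the RBM12 knockdown, which represses the gene by CRISPR interference, and both came from the parental line. The study describes its neuronal line as a single clone in which a doxycycline-inducible Neurogenin transgene drives the glutamatergic fate. No sample with a nontargeting guide was analysed here, so the comparison is that of isoproterenol with no drug when RBM12 is depleted. RBM12 itself was at 244, 279 and 267 normalized counts without isoproterenol (replicates 1 to 3) and at 195, 238 and 233 with it. The groups did not overlap, but the log2 fold change of -0.25 did not pass in limma (adjusted p 0.607 without the pairs and 0.131 with them), and its part in the results below was not tested. The labels give neither dose nor duration for these samples, and nothing in them says whether replicates were separate differentiations, so p-values measure only the spread between these samples.

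Peptide precursors enter dense-core granules at the trans-Golgi network, where granins help to condense the cargo. Inside the granule, PCSK1 and PCSK2 cleave precursors at paired basic residues, and CPE trims the exposed basic residues from the fragments. PCSK1N (proSAAS) inhibits PCSK1, while SCG5 escorts PCSK2 and is needed for its activation. Several of these genes are known targets of CREB, the transcription factor that cAMP signaling activates through PKA and that binds the cAMP response element (CRE).

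RefSeq promoter windows, from 250 bases before to 50 bases after a transcription start, were matched for 8 of the 10 genes (not for CHGB and SCG2). PCSK1 and PCSK2 had 2 starts each, which gave 10 windows. The full CRE (TGACGTCA, its own reverse complement) occurred in the windows of VGF, PCSK1 and CHGA, and in 1.85% of the 35116 promoter windows of all genes. The sequences of these 3 promoters are shown from 100 to 21 bases before the start because the CRE stands there in all of them. They are in GRCh38.p14, written 5′ to 3′ on the strand of the gene, with the CRE in capitals, and none of them overlaps an annotated exon. VGF is at chr7:101165590-101165669 (minus strand), PCSK1 at chr5:96433269-96433348 (minus strand) and CHGA at chr14:92923050-92923129 (plus strand).
VGF: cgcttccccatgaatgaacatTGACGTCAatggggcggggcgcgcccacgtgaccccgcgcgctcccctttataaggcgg
PCSK1: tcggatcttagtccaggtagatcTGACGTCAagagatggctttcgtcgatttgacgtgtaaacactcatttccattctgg
CHGA: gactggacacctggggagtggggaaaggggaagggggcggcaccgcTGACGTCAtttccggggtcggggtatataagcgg

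Counted from the start, the CRE began at position -79 in VGF, -77 in PCSK1 and -54 in CHGA. The core CRE (TGACG on either strand, which every full CRE also holds) was present in 24.6% of all windows. Outside a full CRE it occurred at -221 and -120 in CPE, at -49 in PCSK1, at -17 in SCG5, at -4 in SCG3, and at -157 and -96 from the respective starts of PCSK2. The AP-1 motif (TGACTCA or TGAGTCA), which occurred in 4.95% of all windows, was found in PCSK1N alone, at -246. The second PCSK1 start had none of the 3 motifs. These matches describe letters in a window and were not measurements of binding.

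**Figure D1:**
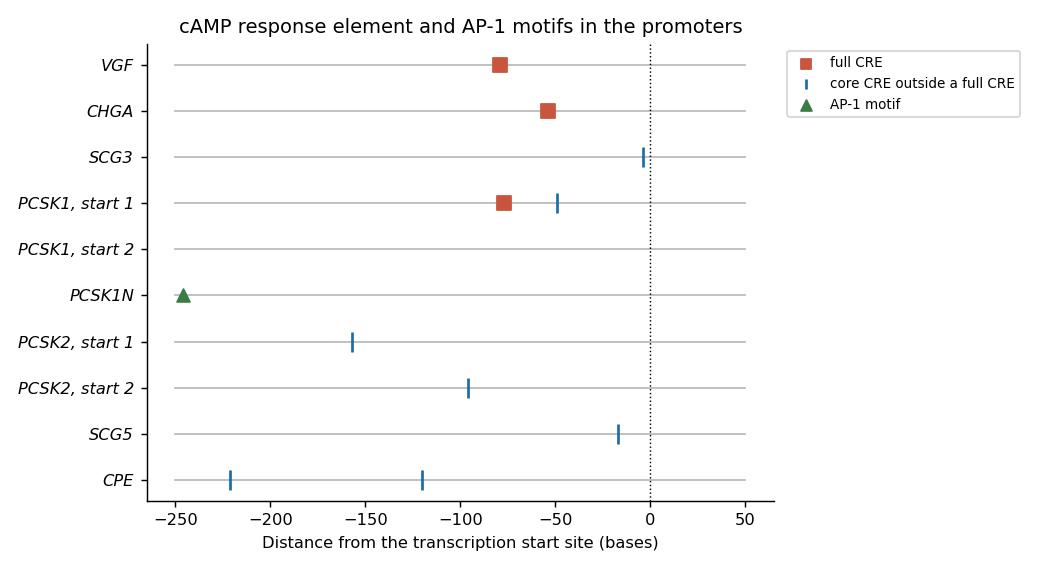
Positions of the full CRE (red squares), the core CRE TGACG outside a full CRE (blue bars) and the AP-1 motif (green triangle) in RefSeq promoter windows, by distance from the transcription start in bases. A full CRE begins at -79, -77 and -54 in VGF, PCSK1 and CHGA.

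The libraries held between 18116816 and 21488793 reads, and 2102 to 41136 of these fell on each of the 10 genes in each sample. Values below are normalized counts, that is, reads of a gene divided by the size factor of the sample. FOS, an immediate early target of cAMP signaling given as a check on the stimulus, had 621 ± 75.7 normalized counts (mean ± SD, n = 3) when untreated and 1735 ± 564 with isoproterenol. Its log2 fold change was 1.44, with a limma adjusted p of 0.435 without the replicate pairs and 0.0268 with them. Over all genes, 3 (0.0165% of those tested) passed an adjusted p of 0.05 in limma without the pairs. With replicate number as a block, 2.82% of genes were called higher and 2.06% lower.

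The neuronal identity given by the labels was checked against markers. Summed over markers of glutamatergic neurons (12 of 13 tested), the level was 128131 to 130073 without isoproterenol and 127181 to 131946 with it. This sum was higher with isoproterenol in pairs 1 and 3 and lower in pair 2. The most abundant, MAP2, STMN2 and SLC17A6, averaged 33644, 65329 and 13442 normalized counts in untreated samples, while NEUROD1 and POU3F2 averaged 7.53 and 196. Of the 12, GRIN1 alone passed FDR 0.05 with the block (log2 fold change 0.29, limma adjusted p 2.67e-04). Of the pluripotency markers, SOX2 was at 0 in the 3 untreated samples, POU5F1 at 6.27, 2.90 and 1.03, and LIN28A at 13.6, 16.4 and 18.6. Their sum was 19.4 to 19.8 without isoproterenol and 15.4 to 28.8 with it. CCNB1, the only 1 of 5 proliferation markers with a row among the genes, was at 112 to 147 and 123 to 145. GFAP, GJA1, NANOG, MKI67 and TOP2A were looked for but had no row among the 19823 genes, so their levels are not known here. The neuronal marker TUBB3 was low, at 77.7 normalized counts, and POU4F1, a transcription factor of sensory neurons, reached 9919. Summed over 5 markers of peripheral and sensory neurons, the level was 10297 to 11821 in untreated and 9326 to 10965 in isoproterenol samples and was lower with isoproterenol in each pair. Of these 5, POU4F1 fell with the block (log2 fold change -0.15, limma adjusted p 1.40e-07). Summed over 5 markers of catecholamine and neuroendocrine cells, cell types also rich in granins, the level was 833.1 to 962.1 and 893.1 to 1035. It was higher with isoproterenol in each pair, and 0 of the 5 genes passed FDR 0.05 with or without the block. Summed markers of GABAergic neurons (4 of 7 tested) were at 58.5 to 67.2 without isoproterenol and 76.1 to 88.2 with it, but moved in different directions. GAD1 and GAD2 were higher in each pair, and SLC32A1 was lower in each (log2 differences -0.56, -0.29 and -0.29). LHX6 was higher in pairs 1 and 2 only. In this order, the 4 genes had low untreated means of 16.7, 21.9, 19.1 and 5.12 normalized counts. With or without the block, 0 of the 4 passed FDR 0.05 in limma. Summed astrocyte markers (2 of 6 tested, AQP4 and S100B) were at 159.8 to 175.1 without isoproterenol and 134.4 to 156.8 with it. AQP4 was lower in each pair, while S100B was lower in pairs 1 and 3 and higher in pair 2. With or without the block, 0 of these 2 genes passed FDR 0.05 in limma. The part of these markers in the results below was not tested. In bulk RNA, more cells of a type and more RNA per cell cannot be told apart.

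SCG2 and VGF ranked among the most abundant transcripts in these iNeurons. By normalized count per kilobase of exonic sequence, SCG2 was 22nd and VGF 26th of the tested genes, at 14238 and 11894. CPE followed at 6808 normalized counts per kilobase, PCSK1N at 5764, CHGA at 3870, CHGB at 2251, SCG3 at 2037 and SCG5 at 1976. The convertases were the least abundant, PCSK1 at 895 and PCSK2 at 375 normalized counts per kilobase. SCG2 exceeded VGF in 6 of 6 samples although their ranges over samples overlapped. The ranges of CHGB and SCG3, and of SCG3 and SCG5, overlapped as well, and those of the other neighbors in this order did not. The length used was that of all annotated exons of a gene together, which lowers the value of genes with many alternative exons. The 10 genes took 0.595% to 0.731% of all reads in a sample.

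In each group the sum over the 10 genes was lowest in replicate 2 and highest in replicate 3. As a share of reads it was 0.647%, 0.595% and 0.708% without isoproterenol (replicates 1 to 3) and 0.655%, 0.612% and 0.731% with it. The isoproterenol sample was higher in each of the 3 same-numbered pairs, by a small amount beside the spread between replicates. SCG2 and VGF took the largest shares of this sum (0.173% and 0.143% of reads in untreated replicate 1). It does not describe each gene, since SCG3, CHGA and PCSK1N were lower in all 3 pairs.

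**Figure D2:**
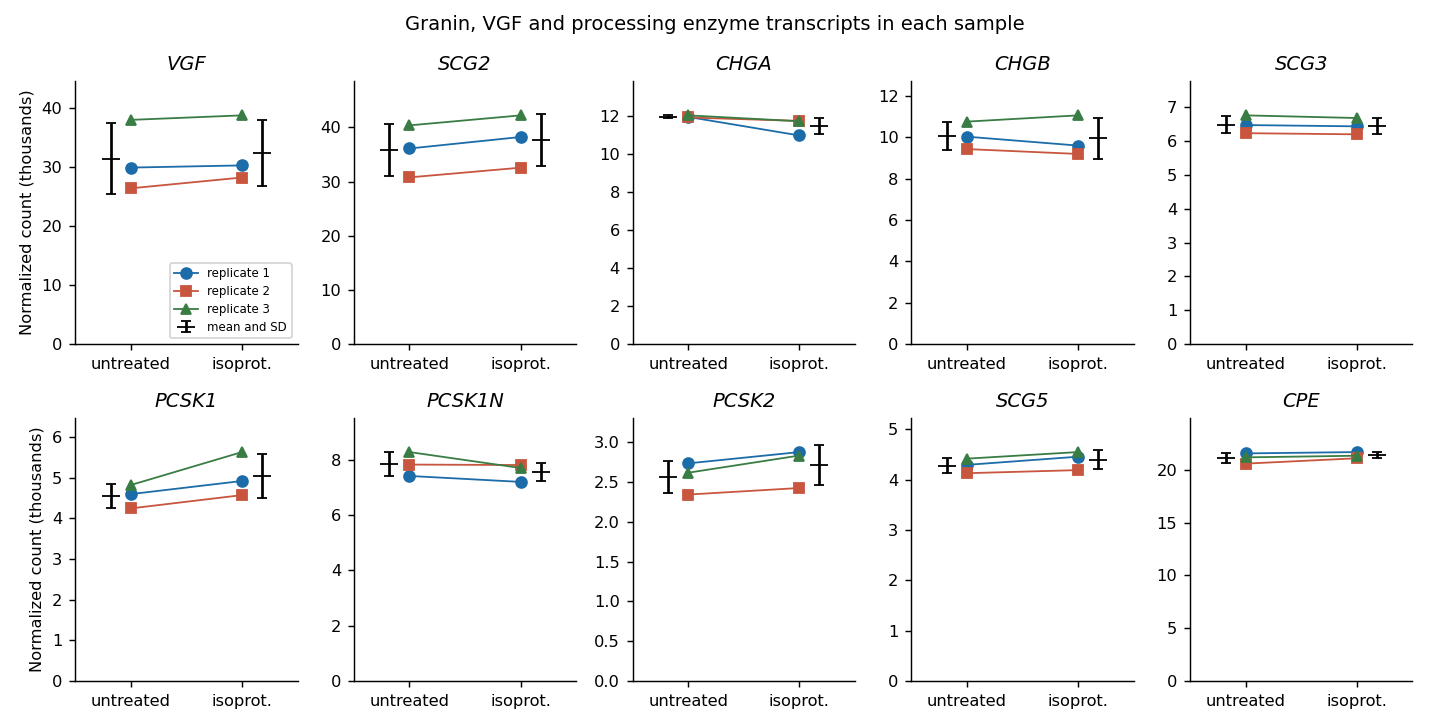
Normalized counts (in units of 1000, axes from 0) of the 10 genes in the 3 untreated and 3 isoproterenol samples. Lines join same-numbered samples, and black marks give mean and SD of each group. Replicate 3 is highest and replicate 2 lowest in both groups for VGF and SCG2, and the lines of PCSK1 rise in all 3 pairs.

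The 10 transcripts differed little between isoproterenol and untreated samples. When the pairs were not used, limma called 0 of the 10 genes at FDR 0.05 and gave 0 an unadjusted p below 0.05, against 7.68% of all genes. The edgeR and DESeq2 tests without the pairs also called 0 of them. Log2 fold changes ran from -0.061 for CHGA to 0.14 for PCSK1, with a median of 0.029 over the 10 genes and 0.0015 over all genes tested. With the replicate block 2 genes rose, PCSK1 and SCG2, and 0 fell, against the 2.82% and 2.06% of all genes given above. With the block, 6 had an unadjusted p under 0.05 (VGF, SCG2, CHGA, PCSK1, PCSK1N and PCSK2), against 16.2% of all genes. The shares in this paragraph cover genes of every level and were not matched for abundance. In all 3 pairs 6 of the genes were higher (VGF, SCG2, SCG5, PCSK1, PCSK2 and CPE), as were 18.5% of genes, and 3 were lower in all 3 (SCG3, CHGA and PCSK1N), as were 17.6% of genes.

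**Figure D3:**
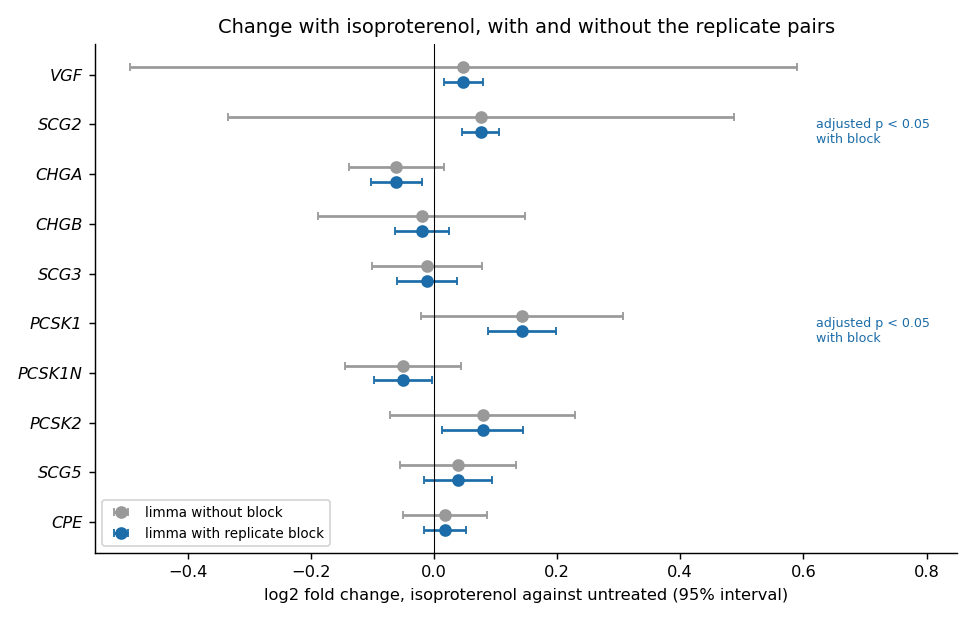
Log2 fold change of isoproterenol against untreated samples (points) with 95% intervals from limma without the block (gray) and with the replicate block (blue). All 10 gray intervals include 0, and 6 blue ones do not. PCSK1 and SCG2 passed FDR 0.05 with the block.

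Among the precursors and granins, SCG2 encodes secretogranin II, the source of the peptide secretoneurin. Its gene (ENSG00000171951) lies on chromosome 2 from 223596940 to 223602361 (GRCh38, minus strand). SCG2 was at 36086, 30761 and 40351 normalized counts without isoproterenol (replicates 1 to 3) and at 38210, 32552 and 42196 with it. The groups overlapped, but each isoproterenol sample lay above its untreated partner. The log2 differences within pairs 1 to 3 were 0.082, 0.082 and 0.064. The fitted change was 0.076, with an SE of 0.15 without the block (limma adjusted p 0.942) and 0.015 with it (limma adjusted p 1.73e-04). With the block, the 95% interval ran from 3.26% to 7.63% above the untreated level. Of the other blocked fits, edgeR also called SCG2 (adjusted p 0.00655) and DESeq2 did not (adjusted p 0.228). Without untreated replicate 2 or isoproterenol replicate 3, the change without the block was -0.027 and -0.010.

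VGF encodes a neurotrophin-inducible precursor that is cut into several neuropeptides. It (ENSG00000128564) lies on chromosome 7 from 101162509 to 101165569 (minus strand). VGF was at 29863, 26358 and 37928 normalized counts without isoproterenol (replicates 1 to 3) and at 30230, 28182 and 38691 with it. Replicate 3 stood above the others in both groups, and the groups overlapped almost entirely. The highest untreated sample was 1.44 times the lowest, while the means of the groups differed by 3.14%. The log2 fold change was 0.048 (SE 0.20, limma adjusted p 0.978), and the differences were 0.018, 0.097 and 0.029 within pairs 1 to 3. With the block VGF did not pass (SE 0.016, limma adjusted p 0.0652), and its 95% interval ran from 1.10% to 5.66% above the untreated level. Without untreated replicate 2 or isoproterenol replicate 3, the change without the block was -0.070 and -0.088, and without untreated replicate 3 it was 0.19.

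CHGA, the chromogranin found in most neuroendocrine granules, was the only one of the 10 genes whose groups did not overlap. It (ENSG00000100604) lies on chromosome 14 from 92923150 to 92935285 (plus strand). CHGA was at 11928, 11898 and 12010 normalized counts without isoproterenol (replicates 1 to 3) and at 10954, 11718 and 11701 with it. All 3 isoproterenol values lay below the untreated ones, as in 6.19% of all genes, and 0 of the 10 lay wholly above them, against 6.73% of genes. The log2 fold change was -0.061 (SE 0.037), with a limma adjusted p of 0.733, or 0.0784 with the block. The differences within pairs 1 to 3 were -0.12, -0.022 and -0.038, so the largest difference was in pair 1. Without isoproterenol replicate 1 the change was -0.029.

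CHGB and SCG3 were nearly level. They lie on chromosome 20 from 5911510 to 5925353 and on chromosome 15 from 51681492 to 51721026 (both plus strand). CHGB, which encodes chromogranin B, averaged 10072 ± 664 normalized counts untreated and 9950 ± 981 with isoproterenol (log2 fold change -0.020, SE 0.073, limma adjusted p 0.972). CHGB was lower in pairs 1 and 2 (-0.063 and -0.037) and higher in pair 3 (0.040), the only one of the 10 genes whose pairs differed in direction. SCG3, which encodes a granin that anchors CHGA aggregates to the granule membrane, averaged 6485 ± 264 and 6435 ± 241 (log2 fold change -0.011, SE 0.043, limma adjusted p 0.972). Relative to the untreated level, the 95% interval of SCG3 with the block ran from -4.07% to 2.67%.

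Among the enzymes, PCSK1 showed the largest change of the 10 genes. PCSK1 encodes the convertase that makes the first cuts in many prohormones. Its gene (ENSG00000175426) lies on chromosome 5 from 96390333 to 96434143 (minus strand). PCSK1 was at 4592, 4241 and 4815 normalized counts without isoproterenol (replicates 1 to 3) and at 4915, 4568 and 5626 with it. Each isoproterenol sample lay above its partner, most of all in pair 3, and the groups overlapped. The log2 differences within pairs 1 to 3 were 0.098, 0.11 and 0.22. The fitted change was 0.14, with an SE of 0.074 without the block (limma adjusted p 0.689) and 0.028 with it (limma adjusted p 1.14e-04). With the block the 95% interval ran from 6.31% to 14.7% above the untreated level. Of the other blocked fits, edgeR called PCSK1 as well (adjusted p 2.24e-05) and DESeq2 did not (adjusted p 0.0939). Without pair 3 the change was 0.10 and no longer passed with the block (limma adjusted p 0.0993), and without isoproterenol replicate 3 it was 0.061 without the block.

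PCSK1N, the precursor of an inhibitor of PCSK1, was at 7422, 7834 and 8287 normalized counts without isoproterenol (replicates 1 to 3) and at 7206, 7818 and 7710 with it. The gene lies on chromosome X from 48831096 to 48835610 (minus strand). PCSK1N was lower in each pair, by a log2 difference of -0.043, -0.0029 and -0.10. The fitted change was -0.050 (SE 0.045, limma adjusted p 0.836, and 0.268 with the block), which did not pass. It was -0.0099 without untreated replicate 3 and -0.089 without untreated replicate 1. The ratio of PCSK1 to PCSK1N counts was 0.619, 0.541 and 0.581 without isoproterenol (replicates 1 to 3) and 0.682, 0.584 and 0.730 with it. This ratio was thus higher with isoproterenol by 10.2%, 7.93% and 25.6% in pairs 1 to 3, and it is given as a description without a test.

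PCSK2, the convertase that completes the processing of many neuropeptides, was at 2734, 2342 and 2616 normalized counts without isoproterenol (replicates 1 to 3) and at 2876, 2424 and 2832 with it. PCSK2 lies on chromosome 20 from 17226107 to 17484578 (plus strand). Its change was 0.079 (SE 0.070, limma adjusted p 0.831, and 0.181 with the block), with 0.073, 0.050 and 0.11 in pairs 1 to 3. With untreated replicate 2 left out of the fit without the block the change was 0.015, and with isoproterenol replicate 2 left out it was 0.16. PCSK2 did not pass, although its change was close in size to that of SCG2 (0.076), whose SE with the block was 0.015 against 0.033 for PCSK2. SCG5, which encodes the chaperone of PCSK2, averaged 4280 ± 145 normalized counts untreated and 4398 ± 186 with isoproterenol (log2 fold change 0.039, SE 0.045, limma adjusted p 0.882). SCG5 lies on chromosome 15 from 32641676 to 32697098 (plus strand) and shares 1129 exonic bases with the readthrough gene ARHGAP11A-SCG5 on the same strand, so its level is uncertain. With 1 sample left out its change ran from 0.013 to 0.074. The ratio of PCSK2 to SCG5 counts changed by 1.36%, 1.99% and 5.14% in pairs 1 to 3.

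CPE, which encodes carboxypeptidase E, lay between 20581 and 21678 normalized counts in the 6 samples, and the groups overlapped. CPE lies on chromosome 4 from 165361194 to 165498547 (plus strand). Its mean was 21102 ± 489 normalized counts untreated and 21366 ± 295 with isoproterenol (log2 fold change 0.018, SE 0.032, limma adjusted p 0.932). Without untreated replicate 2 its change was 0.00020. With the block its 95% interval ran from -1.15% to 3.73% relative to the untreated level.

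The 3 genes with a full CRE in a promoter window thus had log2 fold changes of 0.14 (PCSK1), 0.048 (VGF) and -0.061 (CHGA), of which PCSK1 alone passed FDR 0.05 with the block. Whether the changes of these genes differ was not tested.

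For most of the 10 genes, the replicate number accounted for more of the spread than the treatment did. The sum of squares of the 6 log2 values was divided into a part between replicate numbers, a part between treatments and a remainder. These shares were not corrected for degrees of freedom. The replicate part has more of them than the treatment part and is expected to be larger even without a replicate effect. The replicate part was 98.0% for VGF, 94.4% for SCG2, 98.4% for SCG3 and 94.0% for CHGB, and treatment took 1.30%, 5.53%, 1.41% and 1.04%. PCSK1 had 62.1% between replicate numbers and 32.6% between treatments. CHGA was the exception, with 28.1% between replicate numbers and 46.9% between treatments. The median replicate part was 84.1% over the 10 genes, against 45.7% over all tested genes and 56.9% over the 4640 genes that averaged 1000 normalized counts or more. In 8 of the 10 genes the 3 replicates stood in the same order in both groups, as in 26.0% of all genes. In 6 of them (VGF, SCG2, SCG3, SCG5, CHGB and PCSK1) replicate 2 was lowest and replicate 3 highest in both groups, as in 5.64% of all genes, a pattern looked at after the values were seen. The shares of 26.0% and 5.64% cover genes of every level and were not matched for abundance. Nothing in the labels says what the replicates differ in.

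**Figure D4:**
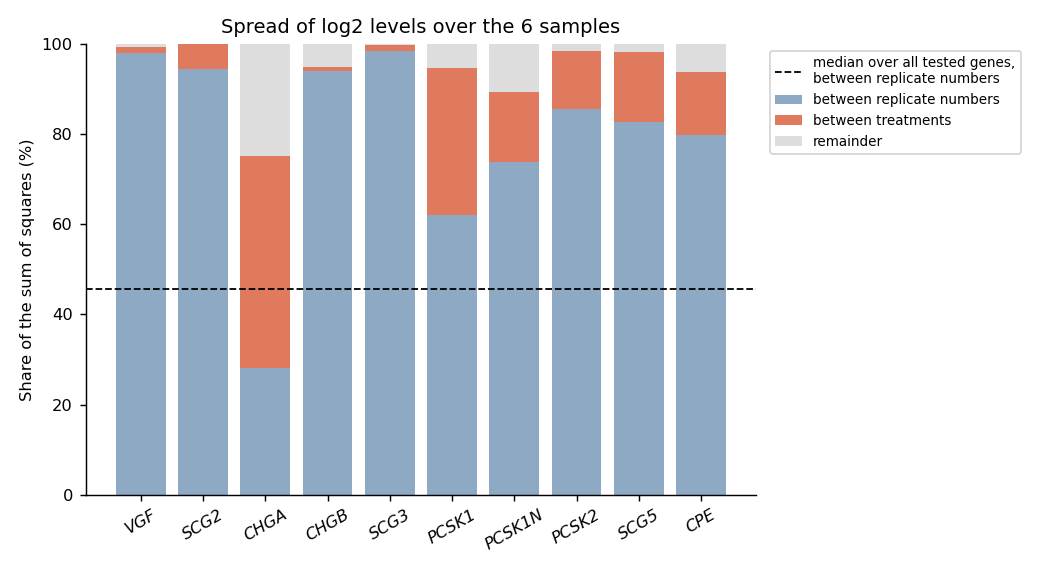
Share (%) of the sum of squares of the log2 levels over 6 samples that lay between replicate numbers (blue), between treatments (red) and in the remainder (gray), for each of the 10 genes. The dashed line is the median replicate share of all tested genes, 45.7%, which 9 of the 10 genes exceed and CHGA does not.

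Genes with like profiles were sought among 13062 others that averaged 50 normalized counts or more, by the root mean square difference of the 6 log2 values after each gene was centered. Most like VGF were NIT2 (0.047 log2 units), TH (0.047), RBP4 (0.055), IGFBP2 (0.058) and ADRA1B (0.062), against a median of 0.23 over the genes searched. TH encodes the first enzyme of catecholamine synthesis, RBP4 a retinol carrier, IGFBP2 a secreted binding protein of insulin-like growth factors and ADRA1B an adrenergic receptor. TH was at 191, 157 and 229 normalized counts without isoproterenol (replicates 1 to 3) and 186, 164 and 226 with it, so it too was highest in replicate 3 of each group. Among the other 9 genes, SCG2 was nearest to VGF, in place 22 (0.084). Most like SCG2 were SMN2 (0.028), RELL2 (0.036), UIMC1 (0.038), NOMO1 (0.038) and RPP25 (0.038), with a median of 0.19. SMN2 and NOMO1 have near-identical copies in the genome, which makes their counts uncertain. Most like PCSK1 were WHRN (0.0070), PARD3 (0.025), BOK (0.030), RAB33A (0.031) and CAPRIN2 (0.032), with a median of 0.16. Of these 5, CAPRIN2 alone passed FDR 0.05 with the block (log2 fold change 0.12, limma adjusted p 0.0420). These profiles rest on 6 samples and are given as a description.

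The rest of the pathway was followed in 4 lists holding 102 genes, of which 95 were tested. Without the block, 0 of the 95 passed FDR 0.05 in limma (smallest adjusted p 0.374), with an unadjusted p below 0.05 for 7, against 7.68% of all genes. With the block 9 rose and 3 fell in limma, against 2.82% and 2.06% of all genes, while DESeq2 with the block called 1 of the 95. The median log2 fold change of the 95 was 0.014. Here and in the lists below, the shares of all genes cover every level and were not matched for abundance.

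Of 6 other proprotein convertases tested, 0 passed in limma with or without the block (smallest adjusted p 0.321 with it), and their median was 0.028. FURIN, the ubiquitous convertase of the trans-Golgi network, had means of 623 and 641 normalized counts in the untreated and treated group. The other enzymes of peptide maturation likewise gave 0 of 13 past FDR 0.05 in limma (smallest adjusted p 0.0778 with the block), with a median of -0.0018. PAM, which amidates the C-terminus of many neuropeptides, had means of 7033 and 7098 (log2 fold change 0.014).

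In the list for granule biogenesis and sorting (37 tested, median 0.015), 4 genes rose and 1 fell with the block, beside 2.82% and 2.06% of all genes. CADPS, a priming factor for dense-core granule release, rose by 0.12 on the log2 scale (limma adjusted p 0.00146 with the block), from 4551 ± 324 to 4951 ± 410 normalized counts. SORL1, a sorting receptor, rose by 0.26 (limma adjusted p 0.0122), from 434 ± 16.6 to 520 ± 25.3, with close differences of 0.27, 0.27 and 0.23 in pairs 1 to 3. VPS13A, a lipid transfer protein, rose by 0.16 (limma adjusted p 1.10e-04) and PTPRN2, a transmembrane protein of the granule, by 0.068 (limma adjusted p 0.0467). VPS41, a trafficking factor used in granule formation, had a log2 fold change of -0.12 (limma adjusted p 0.0402).

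In the list for granule transport, docking and release (39 tested, median 0.013), 5 genes rose and 2 fell with the block, beside the same 2.82% and 2.06% of all genes. RAB3B, a small GTPase of secretory vesicles, rose from 20925 ± 1309 to 22687 ± 1754 normalized counts (log2 fold change 0.12, limma adjusted p 4.10e-07 with the block). SYT4, a synaptotagmin of dense-core granules, rose from 16077 ± 918 to 17225 ± 726 (0.10, limma adjusted p 9.95e-05). SYT17 and SYTL5, members of the synaptotagmin and synaptotagmin-like families, rose by 0.30 and 0.25 (limma adjusted p 4.05e-04 and 0.00114). SYT1, the calcium sensor of fast synaptic vesicle release, fell from 26715 ± 1485 to 25361 ± 1496 (log2 fold change -0.075, limma adjusted p 0.00102). Synaptotagmins thus moved in both directions with the block. Without the pairs, limma called 0 of the 39 genes, and the lowest adjusted p among them was 0.439.

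**Figure D5:**
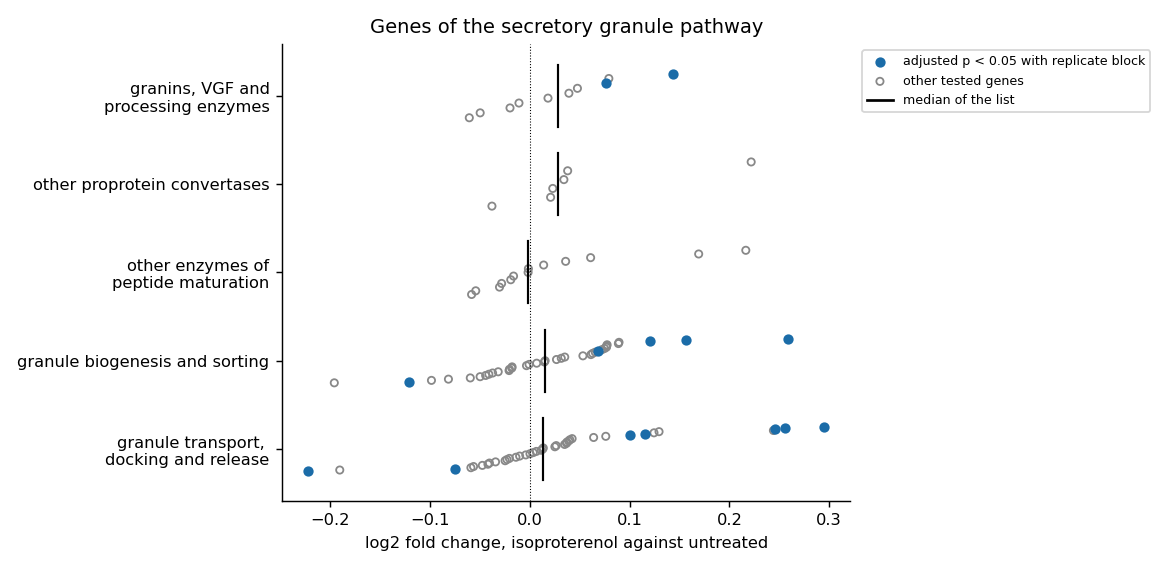
Log2 fold change of isoproterenol against untreated samples for each tested gene of the 10 described and of the 4 pathway lists. Filled points passed FDR 0.05 with the replicate block, open points did not, and the black bars are list medians, which lie between -0.0018 and 0.029.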

How the data were processed

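Poly(A) RNA-seq of 3 untreated and 3 isoproterenol samples was analysed. The authors aligned reads to GRCh38 with STAR, counted them per gene with featureCounts and deposited a signal per gene and sample, the DESeq2 normalized count. Tool versions, the annotation release and strandedness of counting are not given in the sources used here. Each column held whole multiples of 1 step (100% of values above 0, within 0.01 reads), so reads were recovered. Genes with more than 5 reads in at least 4 samples were tested with limma 3.58.1 (trend, robust, two-sided) in R 4.3.3 on log2(normalized count + 1), without covariates, with Benjamini-Hochberg adjustment over 18130 genes. Changes are on this log2 scale. edgeR 4.0.16 (quasi-likelihood) and DESeq2 1.42.0 on recovered reads were alternatives, with other scalings, filters and pseudocounts, and samples left out. The limma fits with and without the replicate block were also run on simulated counts, and the outcome is not reported here.

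Deviations from group means of same-numbered samples correlated at 0.269, 0.493 and 0.388 over 11587 genes averaging 100 or more, so the replicate numbers that the labels give were taken to pair the samples. Blocked values stand beside a result whose call they change. Counts of replicates differed by more than sampling noise (chi-square over its degrees of freedom 3.32 to 5.46). Positions and exon lengths came from GENCODE release 44, which held 99.6% of the gene identifiers. The genes named are the 10 members, members of the 4 pathway lists that passed with or without the block (the 5 of smallest p per list) and the 5 nearest profiles of VGF, SCG2 and PCSK1. FOS, RBM12, FURIN, PAM and markers were added for context, with their values seen. The members and lists were chosen with earlier results of these data known.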

Additional observations from a re-analysis of the deposited data

How the results depend on the processing

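Of 200 values (10 genes under 20 alternatives), 181 kept their direction and side of the threshold, 9 of SCG2 and PCSK1 passed FDR 0.05, and 10 changed sign, all in fits that left out samples. When untreated replicate 2 or isoproterenol replicate 3 was left out, VGF was at -0.070 and -0.088 and SCG2 at -0.027 and -0.010. The others were SCG3 without untreated replicate 3 (0.019) and isoproterenol replicate 2 (0.016), and CHGB without untreated replicate 3 (0.028), isoproterenol replicate 1 (0.0037), isoproterenol replicate 2 (0.035) and, with the block, pair 1 (0.0017). The fits that left out samples ranged from -0.088 to 0.19 for VGF, -0.027 to 0.18 for SCG2, -0.040 to 0.019 for SCG3 and -0.098 to 0.035 for CHGB.

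The replicate block moved the counts past FDR 0.05 most. Over all genes the count was 3, against 885 with the block, 977 in edgeR with the block, 21 in DESeq2 and 143 in DESeq2 with the block. With 1 sample left out it ran from 2 to 67 (67 without isoproterenol replicate 2), and with 1 pair left out of the blocked fit from 456 to 665. For the 10 genes it was 0 without the block in every alternative. With the block it was 2 in limma and in edgeR and 0 in DESeq2, and 1 to 2 without 1 pair. For the other pathway genes it was 0, and 12, 11 and 1 with the block in limma, edgeR and DESeq2. It was 0 to 1 without 1 sample and 5 to 8 without 1 pair of the blocked fit. Other scalings, filters and pseudocounts were run without the block only, where 0 of the 10 genes were called, and were not run for the blocked calls of PCSK1 and SCG2. Without the block, 3 samples against 3 gave 95% intervals as wide as -29.0% to 50.4% for VGF, so changes of the size of its pair differences were not detectable there. Why the tools differ was not tested.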
